A study of Mus musculus with 12 samples.

Results

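The HOX and CDX homeobox genes set the position of cells along the head to tail axis of the embryo. All mouse genes with a single symbol of Hoxa, Hoxb, Hoxc or Hoxd plus a number were taken, with Cdx1, Cdx2 and Cdx4, and where a gene has several probe sets the one with the highest mean is used. This gave 40 members among 19938 measured genes: 37 HOX genes, with 10 in cluster A on chromosome 6, 9 in cluster B on chromosome 11, 9 in cluster C on chromosome 15 and 9 in cluster D on chromosome 2, and 3 CDX genes. Each member was read by 1 probe set, so no other probe set of the same gene was at hand to compare with it. A probe set shared by Hoxb8 and Hoxb7 was left out of the members, and genes of these families outside the 40 are not analysed here as members.

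The study measured mouse iPSCs, which are induced pluripotent stem cells made by reprogramming and can form every germ layer, on 12 Affymetrix gene arrays, 3 for each of 4 groups. The sorted CPC group held day 4 cells taken by fluorescence-activated sorting as positive for both FLK1 and PDGFRα, a gate known to enrich cardiac progenitor cells. The cardiac group was cultured under an optimized cardiac protocol until day 4, and the spontaneous group differentiated until day 4 without it. The control group was undifferentiated iPSCs at day 0. The labels give no genotype, strain or treatment agent, and an abbreviation beside the cardiac group (EB + ck) and another beside the day 0 cells (piPS) are not expanded there. Whether the 3 replicates of a group came from separate cultures is not given in the labels. The p-values therefore cover only the spread between these samples, and that spread may be technical. The series title concerns a lysophosphatidic acid receptor in heart formation, and the comparisons here ask how the axial patterning genes stood in undifferentiated cells, in both kinds of day 4 culture and after the sort.

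As background, HOX genes lie in 4 clusters, and in the embryo they switch on one after another along each cluster. Genes with low paralog numbers come on first, in the posterior primitive streak, and mark anterior levels of the body, while genes with high numbers come on later and mark the tail end. CDX factors are activated by WNT and FGF signals in the posterior embryo and bind HOX control regions, where they promote the central HOX genes. Cdx2 is also needed for trophectoderm, the outer layer of the blastocyst. In pluripotent cells the HOX clusters are held silent by Polycomb proteins, and in the heart field anterior HOX genes such as Hoxb1 are induced by retinoic acid in a subset of progenitors.

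Values are log2 signals as the authors normalized them by RMA, so that a difference of 1 is a 2-fold change in signal. A gene was called in a comparison where limma's adjusted p was under 0.05 and the log2 difference was at least 1 in size. Background was not measured here, and precision is limited by having 3 arrays in each group. In 30 of the 40 members the signal lay below the median of all genes on all 12 arrays, and these signals are not shown to exceed background. Cdx1, Hoxa4 and Hoxb1 lay above that median on all arrays, and 7 members lay on either side of it. Absolute levels of different probe sets are not comparable, so each gene is set against itself across groups.

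Libraries of the same group differed from each other in ways that touch these genes. RNA of Kdr, which encodes FLK1, measured 10.23, 6.25 and 6.03 in sorted CPC replicates 1, 2 and 3. It measured 5.42, 10.81 and 9.01 in cardiac replicates, 9.83, 10.71 and 10.27 in spontaneous replicates, and 5.50, 5.54 and 5.78 in iPSC replicates. Sorted CPC replicates 2 and 3 and cardiac replicate 1 were therefore near day 0 in this RNA, and the arrays do not measure the protein that was sorted on. Pdgfra RNA measured 11.13, 8.47 and 8.29 in sorted CPC libraries, beside 8.75, 9.14 and 8.81 in iPSC libraries. Of 9 cardiogenic mesoderm markers, 0 were called higher in sorted CPC libraries (1 with an unadjusted p under 0.05), 2 in cardiac cultures (Tbx20 and Gata4) and 3 in spontaneous cells (Tbx20, Gata4 and Isl1), and 0 were called lower. Nkx2-5, a defining cardiac factor, differed from day 0 by 0.04, -0.20 and -0.03 in sorted CPC, cardiac and spontaneous cells. Where leaving out these 3 libraries ended a call, the value without them is given beside the result. Some other differences are also given without these 3 libraries. Without them the sorted group has 1 array, which is then assumed to vary like the other groups. The lowest correlation between arrays of a group across all genes was 0.966 in sorted CPC, 0.973 in cardiac, 0.992 in spontaneous and 0.989 in iPSC arrays.

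Before the values, the DNA ahead of the start sites is shown for Cdx2 and Evx1, which were called in spontaneous cells, and for Cdx4, which was not. Evx1 is a homeobox gene beside the HOXA cluster. Each sequence is the 250 bases before the RefSeq start on build GRCm38.p6, written 5′ to 3′ in the direction of the gene. Capitals mark a POU octamer, ATGCAAAT on either strand, the motif that POU factors such as Oct4 bind. Cdx2 is at chr5:147307250-147307499 on the minus strand, Evx1 at chr6:52313248-52313497 on the plus strand and Cdx4 at chrX:103321148-103321397 on the plus strand.
Cdx2: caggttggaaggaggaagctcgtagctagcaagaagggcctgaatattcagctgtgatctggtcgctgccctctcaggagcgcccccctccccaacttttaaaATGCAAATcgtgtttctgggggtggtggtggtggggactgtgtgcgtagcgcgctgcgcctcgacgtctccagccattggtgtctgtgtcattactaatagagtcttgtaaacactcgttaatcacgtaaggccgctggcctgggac
Evx1: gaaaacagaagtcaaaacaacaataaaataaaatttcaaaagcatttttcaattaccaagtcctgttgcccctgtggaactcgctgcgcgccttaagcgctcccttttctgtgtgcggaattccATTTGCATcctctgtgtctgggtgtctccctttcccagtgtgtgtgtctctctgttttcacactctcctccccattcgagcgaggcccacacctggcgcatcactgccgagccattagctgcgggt
Cdx4: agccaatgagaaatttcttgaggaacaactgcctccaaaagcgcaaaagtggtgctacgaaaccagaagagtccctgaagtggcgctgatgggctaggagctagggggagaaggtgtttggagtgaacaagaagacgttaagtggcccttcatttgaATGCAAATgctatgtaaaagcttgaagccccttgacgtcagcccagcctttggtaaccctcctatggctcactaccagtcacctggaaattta
The octamer was looked for after these letters had been read. It was present in 526 of 32851 promoters of this table (1.60%), and in 2 of the 23 members with a promoter entry, Cdx2 and Cdx4. Cdx2, whose signal was higher in spontaneous cells, and Cdx4, whose signal stayed within 3.41 to 3.79 on all arrays, thus share these 8 letters. A match is a description of letters and not a binding site. The motif TTTATG, bound by CDX factors, stood in 4 of the 23 members (Hoxa7, Hoxd3, Hoxd4 and Hoxd11) and in 10.8% of all promoters. The HOX-PBX motif TGATNNAT stood in Hoxa2, Hoxb1 and Hoxd11 and in 7.68% of all promoters. The TCF/LEF motifs CTTTGAT and CTTTGTT, read by WNT effectors, stood in Hoxd8 and in 8.06% of all promoters, and the retinoic acid receptor motif AGGTCA in 6 members and 14% of all promoters. Both strands were searched for each motif.

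Cdx2 was higher in spontaneous cells than in day 0 iPSCs, and it was the 1 member called among the 40 in that comparison. Cdx2 encodes the caudal-type homeobox factor that opens HOX clusters in the posterior embryo. It measured 7.29, 6.54 and 6.55 in sorted CPC libraries, 6.67, 7.35 and 6.95 in cardiac cultures, 7.32, 7.89 and 7.89 in spontaneous cells, and 6.44, 6.57 and 6.29 in day 0 iPSCs. All spontaneous arrays lay above all day 0 arrays, and so did all cardiac arrays, while the sorted CPC arrays overlapped day 0. The group means were 6.79 ± 0.43 in sorted CPC, 6.99 ± 0.34 in cardiac, 7.70 ± 0.33 in spontaneous and 6.43 ± 0.14 in iPSC arrays (SD, n = 3 each). In cell mixtures such as these, more cells with Cdx2 RNA and more Cdx2 RNA per cell cannot be told apart.

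The Cdx2 difference between spontaneous cells and day 0 was 1.27 ± 0.23 (SE) on the log2 scale, a 2.41-fold higher signal, with a 95% interval of 0.76 to 1.77 and a limma adjusted p = 0.00578. Of all genes, 3.57% were called in this comparison and 1.99% were called higher, so that 1 call among 40 members is near the background share. The Cdx2 call held in 24 of 24 alternative settings, with differences of 1.17 to 1.46 and limma adjusted p-values of 7.46e-05 to 0.0351. Among these settings, dropping the minimum difference could not end a call. Averaging probe sets left the Cdx2 signals unchanged, since Cdx2 has 1 probe set. In cardiac cultures Cdx2 differed from day 0 by 0.56 (95% interval 0.05 to 1.06, limma adjusted p = 0.182), and in sorted CPC libraries by 0.36 (interval -0.15 to 0.86, limma adjusted p = 0.453). Without cardiac replicate 1 and sorted CPC replicates 2 and 3, these differences were 0.72 and 0.86. Both stayed under the minimum difference of 1, which by itself kept them from being called. No p-value is given for a fit that leaves 1 sorted CPC array, so the missing call does not show that Cdx2 was unchanged. The left-out libraries were picked by their Kdr RNA and 1 sorted CPC array remained, so these values give no separate support. Sorted CPC replicate 1, the highest of its group in Kdr, was also the highest in Cdx2 at 7.29, and cardiac replicate 1, the lowest of its group in Kdr, was also the lowest in Cdx2 at 6.67. Whether cell makeup accounts for this was not tested.

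Between day 4 groups no member was called. Cdx2 in cardiac cultures differed from spontaneous cells by -0.71 (95% interval -1.21 to -0.20, limma adjusted p = 0.999), and the arrays of these groups overlapped at 7.35 against 7.32. In sorted CPC libraries it differed from spontaneous cells by -0.91 (interval -1.41 to -0.40, adjusted p = 0.295), and these arrays did not overlap. Without overlap, 0 members lay higher and 1 lower (Hoxc8) in cardiac than in spontaneous arrays (2.5% lower), where 5.23% of all genes lay higher and 3.77% lower. In sorted CPC against spontaneous arrays 1 lay higher (Hoxc13) and 1 lower (Cdx2), beside 9.44% and 10.2% of all genes, and in sorted CPC against cardiac arrays 0 and 0, beside 7.79% and 5.3%. Between sorted CPC libraries and cardiac cultures the difference was -0.20 (adjusted p = 0.659), and it turned to 0.14 without the 3 libraries with low Kdr RNA. Of all genes, 0% were called between cardiac and spontaneous cells, 0% between sorted CPC and cardiac and 0.00502% between sorted CPC and spontaneous cells. The counts of members with an unadjusted p under 0.05 were 1, 2 and 1 in these comparisons, against 3.73%, 15.7% and 11.6% of all genes. The intervals of Cdx2 excluded 0 in both comparisons with spontaneous cells before adjustment over all genes. The moderated F test over the 4 groups, again in limma, passed for Cdx2 alone among the 40 members (adjusted p = 0.0259), where 5.86% of all genes passed. That F call was lost without spontaneous replicate 2 or 3 or any 1 of the iPSC replicates. An F test at an unadjusted p under 0.05 took in 2 of the 40 members, Cdx2 and Hoxd13. The share of all genes at that cut-off was not counted, so this count gives no support for Hoxd13.

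**Figure D1:**
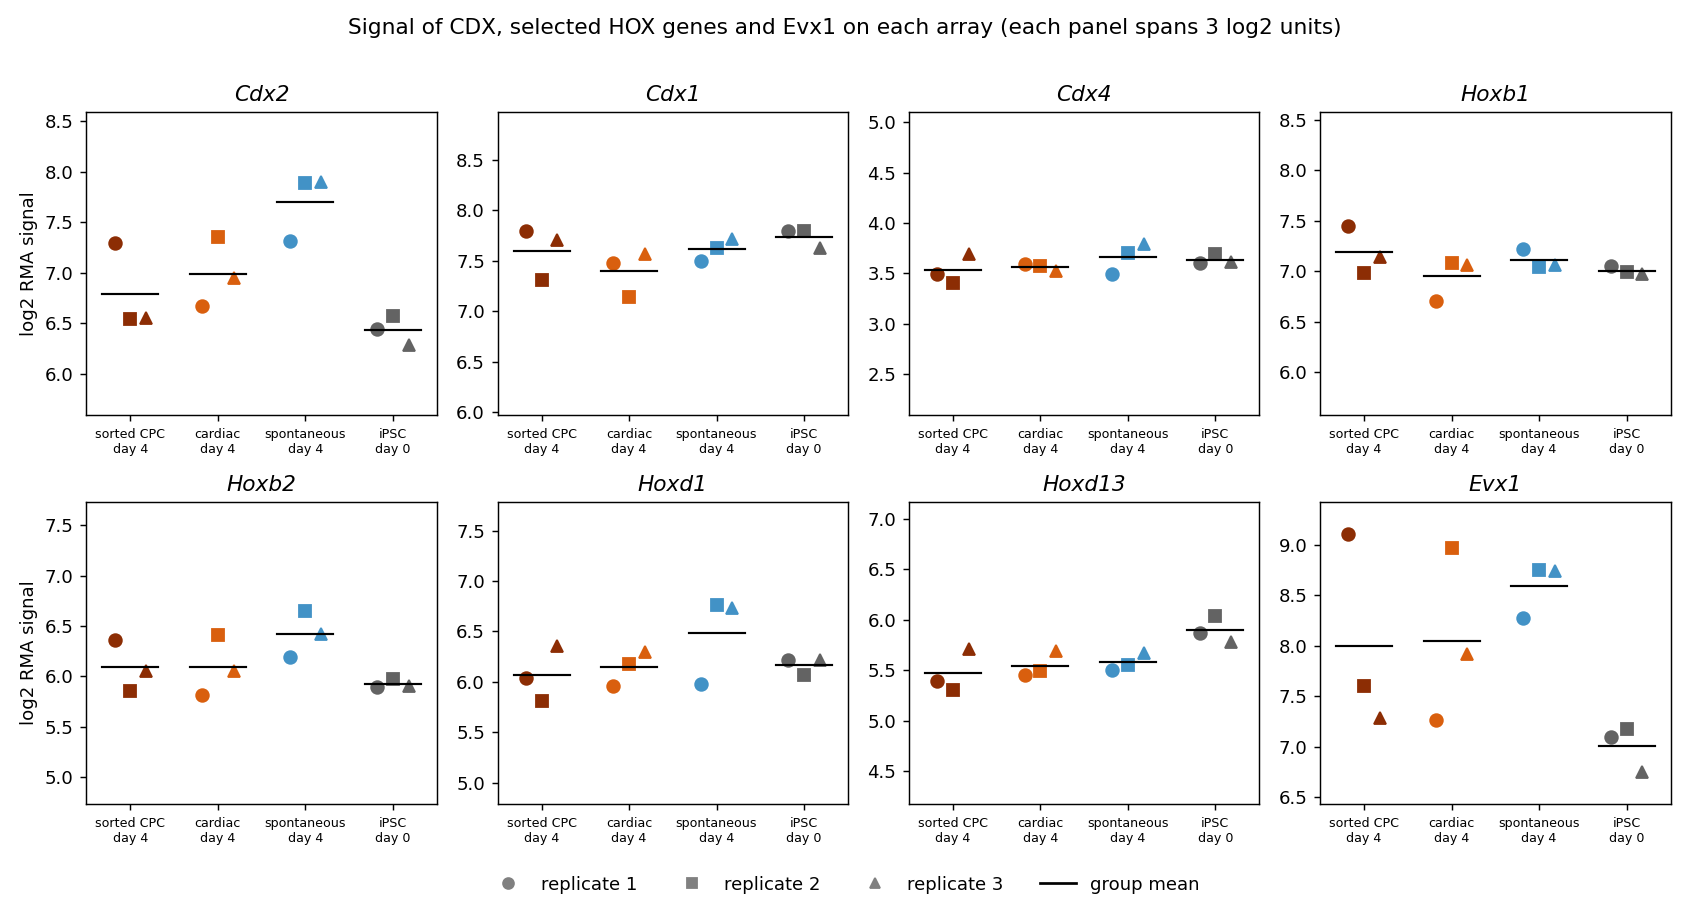
Log2 RMA signal (y axis, each panel spanning 3 log2 units) of 8 genes on each of the 12 arrays, with groups along the x axis, 1 symbol per replicate and a line at the group mean. Cdx2 and Evx1 lay above day 0 on all 3 spontaneous arrays, Hoxd13 lay below day 0 on all 9 day 4 arrays, and Cdx4 stayed between 3.41 and 3.79.

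Cdx2 is also a trophectoderm gene, and part of the marker list of that lineage moved in the same arrays. Of 10 trophectoderm genes, 4 were called higher and 0 lower in spontaneous cells: Eomes, a T-box factor shared with the primitive streak, by 4.29, Gata3 by 2.21, Plac1 by 1.56 and Cdx2 itself by 1.27. In sorted CPC libraries and in cardiac cultures 1 was called, Eomes, by 3.70 in sorted CPC and 3.53 in cardiac arrays, and by 5.05 and 4.28 without the 3 libraries low in Kdr RNA. Elf5, a defining trophoblast factor, differed by 0.04 in sorted CPC, -0.09 in cardiac and -0.00 in spontaneous arrays, and Tfap2c by -0.37, -0.37 and -0.04. The mean signal of the list without Cdx2 was 6.78 to 7.18 in sorted CPC, 6.91 to 7.33 in cardiac, 7.22 to 7.70 in spontaneous and 6.52 to 6.60 in iPSC arrays. That mean still holds Eomes, which was called higher in each day 4 group, so it does not measure trophectoderm alone. The Gata3 and Plac1 calls were each lost without spontaneous replicate 2 or 3 or iPSC replicate 1 or 2. The part of such cells in the Cdx2 difference was not tested. Pou5f1, which encodes Oct4 and opposes Cdx2 in the early embryo, measured 10.47, 11.37 and 10.80 in sorted CPC, 11.00, 10.60 and 10.75 in cardiac, 10.64, 9.80 and 10.28 in spontaneous and 11.24, 11.31 and 11.57 in iPSC arrays. It was 1.13 lower in spontaneous cells than at day 0 (limma adjusted p = 0.00952), a call lost without spontaneous replicate 2, when the difference was -0.91.

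The other CDX genes were not called in any of the 6 comparisons. Cdx1, which acts with Cdx2 in somites and neural tube, measured 7.79, 7.30 and 7.71 in sorted CPC, 7.48, 7.14 and 7.57 in cardiac, 7.50, 7.63 and 7.71 in spontaneous and 7.79, 7.80 and 7.63 in iPSC arrays. The cardiac arrays all lay below the day 0 arrays, with a difference of -0.34 (95% interval -0.69 to 0.0013, limma adjusted p = 0.225), while the other day 4 groups overlapped day 0. Cdx4, an X-linked gene that supports blood and mesoderm formation with its relatives, measured 3.49, 3.41 and 3.69 in sorted CPC, 3.60, 3.57 and 3.52 in cardiac, 3.49, 3.71 and 3.79 in spontaneous and 3.61, 3.69 and 3.61 in iPSC arrays. The cardiac Cdx4 arrays all lay just below the day 0 arrays, and the other day 4 groups overlapped day 0. Its differences from day 0 were -0.11, -0.07 and 0.03 in sorted CPC, cardiac and spontaneous cells (limma adjusted p = 0.594, 0.642 and 0.902).

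Of the 37 HOX genes, limma called 0 in each of the 6 comparisons. Set against day 0, their log2 differences ran from -0.42 (Hoxd13) to 0.22 (Hoxb5) in sorted CPC libraries, where 2.11% of all genes were called. They ran from -0.44 (Hoxb9) to 0.17 (Hoxb2) in cardiac cultures, where 2.2% of all genes were called, and from -0.32 (Hoxd13) to 0.50 (Hoxb2) in spontaneous cells. The lowest limma adjusted p of a HOX gene was 0.0768, 0.121 and 0.088 in the same comparisons. At an unadjusted p under 0.05 stood 1 member in sorted CPC, 5 in cardiac and 3 in spontaneous cells, the CDX genes included, against 19.3%, 22.4% and 24% of all genes.

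The intervals bound the size of the HOX differences. The 95% interval of the difference from day 0 lay wholly between -1 and 1 for 40 of 40 members in sorted CPC, 39 in cardiac and 39 in spontaneous cells, Cdx2 being the exception in both. Over all genes that share was 90.1%, 89.6% and 87.6%. Among HOX genes the outermost interval ends were -0.70 and 0.60 in sorted CPC, -0.84 and 0.54 in cardiac and -0.70 and 0.87 in spontaneous cells. Where a signal lies near background, such an interval limits the change in signal and can understate the change in RNA. The SD of a HOX gene over the 12 arrays had a median of 0.189, from 0.112 in Hoxd4 to 0.299 in Hoxd9, beside a median of 0.199 over all genes.

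**Figure D2:**
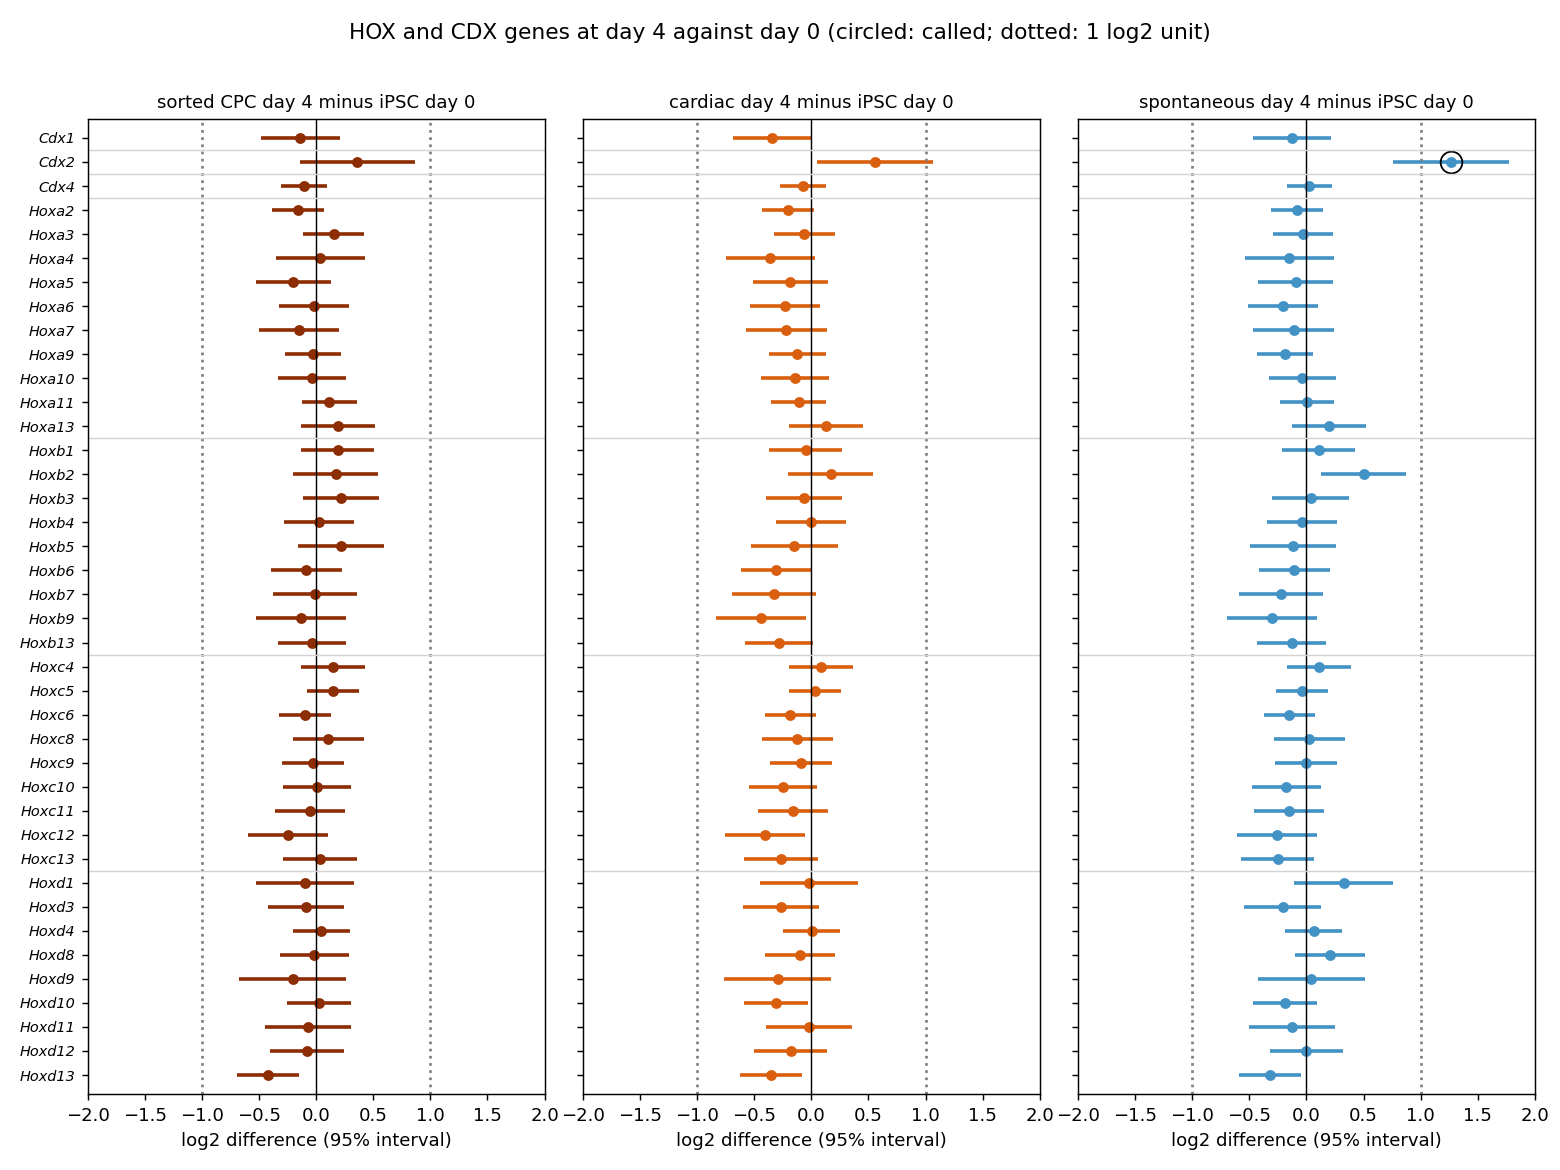
Log2 difference from day 0 iPSCs (x axis) with its 95% interval from the limma fit for the 40 members (y axis, ordered by family and cluster), in sorted CPC, cardiac and spontaneous cells from left to right. Dotted lines mark 1 log2 unit, and the circled point is the called gene, Cdx2 at 1.27 in spontaneous cells.

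Among the genes of the anterior ends, Hoxb2 had the largest difference of any HOX gene. Hoxb2 patterns the hindbrain and is among the first HOX genes of mesoderm. It measured 6.36, 5.86 and 6.05 in sorted CPC, 5.81, 6.42 and 6.05 in cardiac, 6.20, 6.65 and 6.42 in spontaneous and 5.89, 5.97 and 5.90 in iPSC arrays. All spontaneous arrays lay above day 0, with a difference of 0.50 ± 0.17 (SE, 95% interval 0.13 to 0.87, limma adjusted p = 0.088). The arrays high in Hoxb2 within the other day 4 groups were sorted CPC replicate 1 and cardiac replicate 2, which were also the highest of their groups in Kdr. When 1 array was left out, the spontaneous difference ran from 0.39 to 0.61 (limma adjusted p = 0.0461 to 0.312). It thus reached an adjusted p under 0.05 at the lowest, but stayed under the minimum difference. Without the 3 libraries low in Kdr RNA, the spontaneous difference stayed at 0.50, under the minimum difference. In sorted CPC and cardiac arrays the difference was then 0.44 and 0.31.

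Hoxb1, an anterior HOX gene of the hindbrain that also marks some heart progenitors, was not called. It measured 7.45, 6.98 and 7.14 in sorted CPC, 6.71, 7.08 and 7.07 in cardiac, 7.22, 7.05 and 7.06 in spontaneous and 7.05, 6.99 and 6.97 in iPSC arrays. Its differences from day 0 were 0.19, -0.05 and 0.11 in sorted CPC, cardiac and spontaneous cells (limma adjusted p = 0.552, 0.849 and 0.716). The highest array was sorted CPC replicate 1, and the group it belongs to overlapped day 0. Its neighbour Hoxb3 measured 7.10, 6.53 and 7.13 in sorted CPC, 6.72, 6.51 and 6.69 in cardiac, 6.70, 6.87 and 6.65 in spontaneous and 6.70, 6.69 and 6.73 in iPSC arrays. Hoxa4 measured 7.59, 7.07 and 7.47 in sorted CPC, 7.08, 6.60 and 7.27 in cardiac, 7.19, 7.20 and 7.19 in spontaneous and 7.51, 7.22 and 7.30 in iPSC arrays. Neither gene differed from day 0 by more than 0.36 in size.

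Hoxd1 was singled out after its values were seen, because its spontaneous arrays divided. It measured 6.03, 5.81 and 6.35 in sorted CPC, 5.96, 6.17 and 6.30 in cardiac, 5.98, 6.76 and 6.73 in spontaneous and 6.22, 6.06 and 6.21 in iPSC arrays. Spontaneous replicates 2 and 3 lay above all other arrays and replicate 1 lay below all of day 0, for a difference of 0.33 (limma adjusted p = 0.361). The same replicates 2 and 3 had the highest Cdx2 and Hoxb2 of the spontaneous group. They were also the highest in Gata3 (9.05 and 9.03, against 7.48 in replicate 1), and the part of cell makeup in this was not tested.

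The posterior ends of the clusters were read by 4 genes of group 13. Hoxd13, a gene of digits and genital tubercle that was also singled out after its values were seen, measured 5.40, 5.31 and 5.71 in sorted CPC, 5.45, 5.49 and 5.69 in cardiac, 5.51, 5.56 and 5.67 in spontaneous and 5.87, 6.04 and 5.78 in iPSC arrays. All 9 day 4 arrays lay below all day 0 arrays. The differences were -0.42 in sorted CPC (95% interval -0.70 to -0.15, limma adjusted p = 0.0768), -0.35 in cardiac (adjusted p = 0.121) and -0.32 in spontaneous cells (adjusted p = 0.140). These comparisons share the day 0 arrays. Hoxa13, needed for limb and hindgut ends, measured 6.15, 5.65 and 5.97 in sorted CPC, 5.68, 6.06 and 5.86 in cardiac, 5.69, 6.06 and 6.06 in spontaneous and 5.72, 5.71 and 5.79 in iPSC arrays, and all its groups overlapped day 0. Hoxb13, a gene of the tail end and prostate, differed from day 0 by -0.04, -0.28 and -0.13 in sorted CPC, cardiac and spontaneous cells (limma adjusted p = 0.918, 0.248 and 0.623), and its cardiac arrays lay below day 0. Hoxc13, a gene of hair and nails, differed by 0.03, -0.26 and -0.25 (adjusted p = 0.939, 0.314 and 0.341), and its spontaneous arrays lay below day 0. Outside group 13, Hoxb9, a thoracic-level gene, measured 6.78, 6.29 and 6.80 in sorted CPC, 6.46, 5.91 and 6.58 in cardiac, 6.44, 6.53 and 6.40 in spontaneous and 6.95, 6.70 and 6.62 in iPSC arrays. It was the HOX gene with the most negative difference in cardiac cultures (-0.44, limma adjusted p = 0.179). All cardiac and all spontaneous arrays of Hoxb9 lay below day 0, with a difference of -0.30 in spontaneous cells (adjusted p = 0.359).

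By paralog number, the 11 anterior genes of groups 1 to 4 had a median difference from day 0 of 0.05 in sorted CPC, -0.05 in cardiac and 0.04 in spontaneous cells. The 10 central genes of groups 5 to 8 had medians of -0.02, -0.18 and -0.11 in the same order. The 16 posterior genes of groups 9 to 13 had medians of -0.04, -0.22 and -0.14, and 11, 15 and 13 of them were negative. The medians over all genes were 0.03, -0.05 and -0.03. By cluster, the medians were -0.02, -0.17 and -0.09 in A, 0.02, -0.15 and -0.11 in B, 0.01, -0.16 and -0.15 in C, and -0.08, -0.18 and -0.00 in D. None of these groups of genes held a call, and no test was made of a difference between them.

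**Figure D3:**
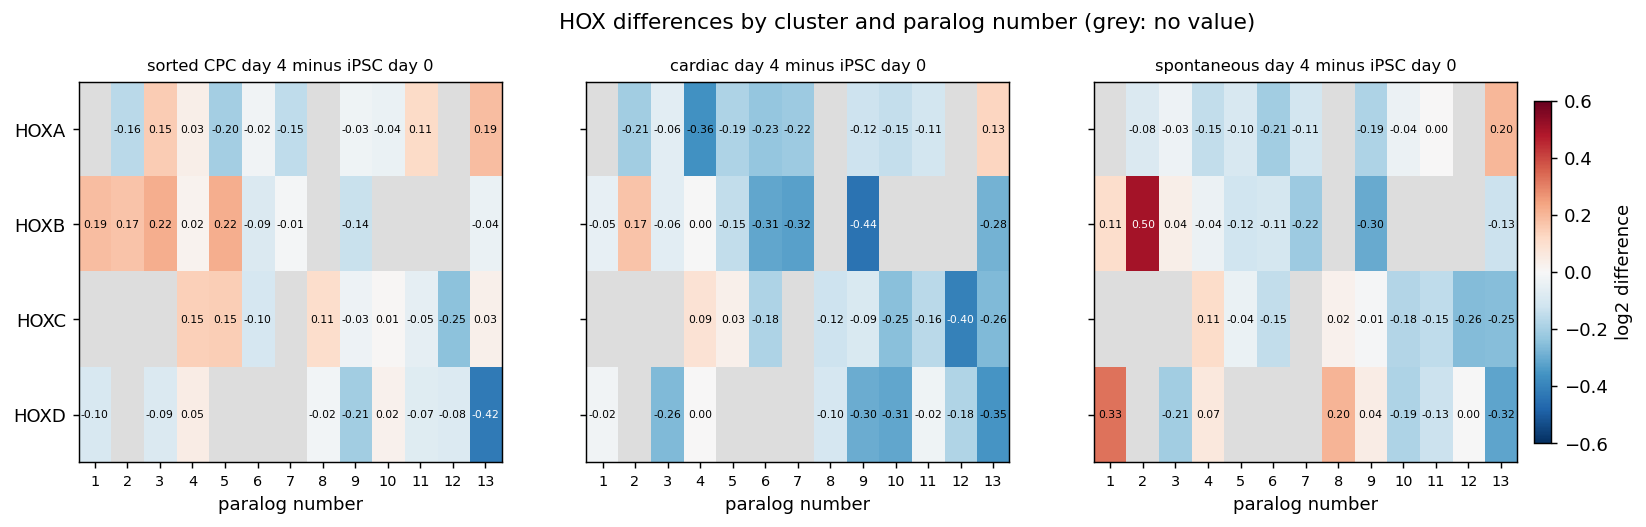
Log2 difference from day 0 iPSCs for each HOX gene by cluster (rows) and paralog number (columns), for sorted CPC, cardiac and spontaneous cells from left to right, with the value printed in each cell and colour from -0.6 to 0.6. The strongest cells are Hoxb2 at 0.50 in spontaneous cells and Hoxb9 at -0.44 in cardiac cultures, and neither was called.

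The signs of the member differences are set here beside shifts of whole arrays. In cardiac cultures 34 of 40 members (85%) had a negative difference, where 58.2% of all genes and 76.6% of dim genes did. There 10 members (25%) lay below day 0 on all arrays, where 16.2% of all genes did, and 1 (2.5%) lay above, where 12.8% of all genes did. In spontaneous cells 27 members (67.5%) were negative, where 56.2% of all genes and 70.6% of dim genes were, and 11 (27.5%) lay below day 0 without overlap, where 21.6% of all genes did, and 2 (5%) lay above, where 19.4% of all genes did. In sorted CPC libraries 23 members (57.5%) were negative, where 45.1% of all genes and 39% of dim genes were. There 1 (2.5%) lay below without overlap, where 11.3% of all genes did, and 0 lay above, where 10.2% did. Between cardiac and spontaneous cells 36 members (90%) had a negative difference, beside 56.7% of all genes and 62.4% of dim genes. Between sorted CPC and cardiac arrays 7 members (17.5%) were negative, beside 46% and 20.5%. Between sorted CPC and spontaneous arrays 16 (40%) were negative, beside 45.5% and 22.7%. The HOX genes deviated from their own means over all arrays by a median of 0.12, -0.19 and 0.19 in sorted CPC replicates 1, 2 and 3 and by -0.06, -0.28 and 0.04 in cardiac replicates. In spontaneous arrays these medians were -0.05, 0.02 and 0.02, and in iPSC arrays 0.08, 0.03 and 0.05. All dim genes, those whose mean signal lay below the median of all genes, deviated by a median of 0.13, -0.06 and 0.13 in sorted CPC and -0.05, -0.18 and -0.000685 in cardiac arrays. In spontaneous arrays the dim genes stood at -0.05, -0.03 and -0.04, and in iPSC arrays at 0.02, 0.04 and 0.03. The medians of HOX and dim genes thus had the same sign on 9 arrays and opposite signs on cardiac replicate 3 and spontaneous replicates 2 and 3, where both were within 0.04 of 0. Cardiac replicate 2 held the lowest value of 24 of the 40 members, sorted CPC replicate 2 the lowest of 10 and sorted CPC replicate 3 the highest of 17. The part of these array shifts in the counts was not tested.

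With the dim signals of the arrays aligned to each other, a setting chosen after seeing the data, the posterior medians moved to -0.08 in sorted CPC, -0.11 in cardiac and -0.07 in spontaneous cells. Hoxd13 in sorted CPC libraries was then at -0.46 (limma adjusted p = 0.027), under the minimum difference of 1. In the same setting Hoxd13 differed by -0.24 (adjusted p = 0.201) in cardiac and -0.25 (adjusted p = 0.181) in spontaneous cells.

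**Figure D4:**
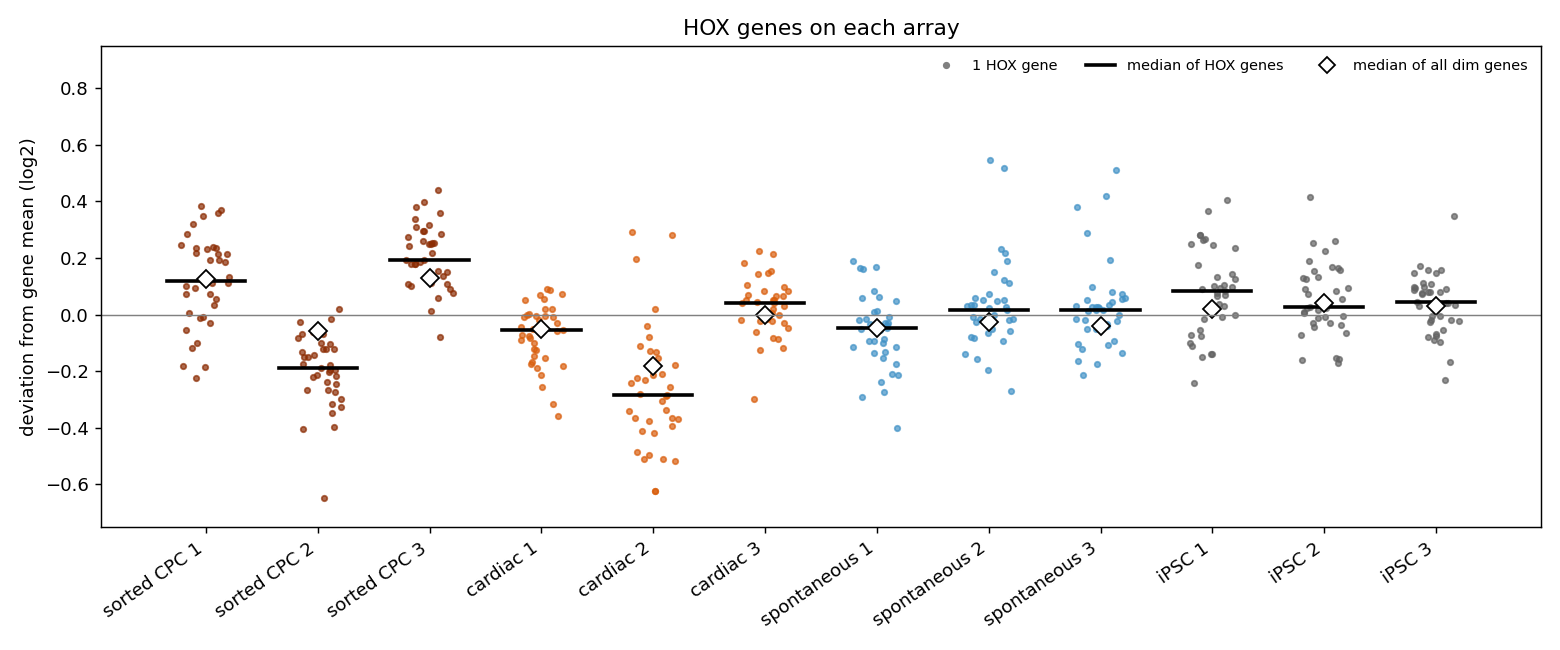
Deviation of each HOX gene from its own mean over all arrays (y axis, log2) on each of the 12 arrays (x axis), with the median of HOX genes as a bar and the median of all dim genes as a diamond. Cardiac replicate 2 and sorted CPC replicate 2 lay low at -0.28 and -0.19, and sorted CPC replicate 3 lay high at 0.19, and the diamonds of these 3 arrays lay on the same side of 0.

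Evx1 stands next to the HOXA cluster and marks the posterior primitive streak under WNT and BMP signals. It measured 9.11, 7.60 and 7.28 in sorted CPC, 7.27, 8.97 and 7.92 in cardiac, 8.27, 8.75 and 8.74 in spontaneous and 7.10, 7.18 and 6.75 in iPSC arrays. All 9 day 4 arrays lay above day 0. Evx1 rose in spontaneous cells by 1.58 ± 0.44 (SE, 2.99-fold, limma adjusted p = 0.0405), and the differences in sorted CPC and cardiac cells were 0.99 (adjusted p = 0.243) and 1.04 (adjusted p = 0.188). The call was lost in 10 of 24 alternatives (adjusted p = 0.0512 to 0.139), which include leaving out any 1 spontaneous or iPSC array or cardiac replicate 3. Without the 3 libraries low in Kdr RNA, the spontaneous difference stayed at 1.58. Of the 5 genes of the list of Evx and other ParaHox genes, 1 was called higher and 0 lower in spontaneous cells, with a median of -0.14, and 0 were called in sorted CPC and cardiac cells, where 1 each had an unadjusted p under 0.05. Evx2, beside the HOXD cluster, differed by 0.11, -0.24 and -0.17 in sorted CPC, cardiac and spontaneous cells, and Gsx1 by 0.10, -0.14 and -0.14.

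Signals known to act on CDX and HOX genes gave calls in each day 4 group. For comparison, 0.787% of all genes were called higher and 1.32% lower in sorted CPC libraries, 1.26% and 0.943% in cardiac cultures, and 1.99% and 1.57% in spontaneous cells. Of 15 measured tailbud and posterior streak genes, 1 was called higher and 1 lower in sorted CPC, 1 and 1 in cardiac and 4 and 1 in spontaneous cells, with medians of 0.51, 0.51 and 0.60. Fgf8, a streak growth factor, was called higher in all day 4 groups, by 2.01, 1.49 and 1.77 (limma adjusted p = 0.0082, 0.0343 and 0.0113). Fgf4, a growth factor of the epiblast, fell by 1.69, 1.50 and 2.11 (adjusted p = 0.0103, 0.0196 and 0.00233). In spontaneous cells the streak ligand Wnt3 rose by 2.19, the WNT effector Lef1 by 2.39 and the WNT target Axin2 by 1.72 (limma adjusted p = 0.0178, 0.0226 and 0.0246). The calls of Wnt3, Lef1 and Axin2 were each lost without spontaneous replicate 2 or 3 or iPSC replicate 1 or 2, and those of Lef1 and Axin2 also without spontaneous replicate 1. The cardiac call of Fgf4 was lost without cardiac replicate 2 or 3 or any 1 of the iPSC arrays (adjusted p = 0.0517 to 0.0733). The cardiac call of Fgf8 was lost in 10 of 24 alternatives (adjusted p = 0.0501 to 0.146), the same 5 left-out arrays among them. Without the 3 libraries low in Kdr RNA, Fgf8 stood at 2.18 in sorted CPC and 2.06 in cardiac arrays. Fgf4 then stood at -2.10 and -1.94 in the same order. Sp5 and Wnt5a, both uncalled, differed by 1.48 and 2.83 in spontaneous cells (adjusted p = 0.182 and 0.0596).

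Of 17 retinoic acid genes, 2 were called higher in sorted CPC, 2 in cardiac and 1 in spontaneous cells, and 0 were called lower. Cyp26a1, the enzyme that degrades retinoic acid, rose in all of them, by 3.51, 4.34 and 4.09 (limma adjusted p = 0.00203, 0.000725 and 0.00069). Dhrs3, a retinal reductase, rose by 1.09 in sorted CPC (adjusted p = 0.0231) and Rdh10, which makes retinal, by 1.25 in cardiac cultures (adjusted p = 0.0173). The Rdh10 call was lost without cardiac replicate 1 and the Dhrs3 call without sorted CPC replicate 2 or iPSC replicate 2, and each was lost without iPSC replicate 1 or 3. Without the 3 libraries low in Kdr RNA, Dhrs3 in sorted CPC stood at 0.54 and Rdh10 in cardiac cultures at 0.86, and neither was called. Cyp26a1 in sorted CPC then stood at 5.02. The Dhrs3 call was also lost with array weights, at 0.91 (adjusted p = 0.0446). The list medians were 0.00, -0.09 and -0.07. Crabp1 and Rxrb, which were uncalled, differed by -0.70 and -0.08 in sorted CPC, -0.42 and 0.12 in cardiac and -0.14 and 0.09 in spontaneous cells.

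Of 8 measured TALE genes, whose products bind DNA together with HOX proteins, 0 were called in sorted CPC and cardiac cells, where 3 each had an unadjusted p under 0.05. In spontaneous cells 1 was called, Pbx3, which rose by 2.06 (limma adjusted p = 0.0278), a call that leaving out any 1 spontaneous or iPSC array ended. The list medians were 0.44, 0.50 and 0.78 in sorted CPC, cardiac and spontaneous cells. Pbx2 passed on p in spontaneous and cardiac cells (0.87 and 0.84, adjusted p = 0.0279 and 0.0449) under the minimum difference, and Pknox1 differed by -0.23, 0.02 and -0.09 in sorted CPC, cardiac and spontaneous cells.

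Of 17 Polycomb genes, which keep HOX clusters silent, 9, 7 and 9 had an unadjusted p under 0.05 in sorted CPC, cardiac and spontaneous cells. The shares of all genes were 19.3%, 22.4% and 24%. The list medians were -0.35, -0.14 and -0.11, beside 0.03, -0.05 and -0.03 over all genes. Of these 17 genes 0 were called in sorted CPC and cardiac cells, and 2 were called lower in spontaneous cells. Jarid2, a partner of the H3K27 methyltransferase complex, fell by 1.13 (limma adjusted p = 0.00361), and Phc1, a subunit of the other Polycomb complex, fell by 1.37 (adjusted p = 0.0172). The Phc1 call was lost without spontaneous replicate 2 or 3 or iPSC replicate 1 or 2. The enzyme gene Ezh2 differed by -0.09, -0.09 and 0.01 in sorted CPC, cardiac and spontaneous cells, and Mtf2 by -0.87, -0.69 and -0.76, under the minimum difference in each. Of 11 trithorax and H3K27 demethylase genes, which oppose Polycomb, 0 were called in any comparison, with 4, 4 and 5 at an unadjusted p under 0.05 in these groups. Their medians were 0.21, 0.21 and 0.14 in sorted CPC, cardiac and spontaneous cells. Ash2l, a core subunit of the H3K4 methyltransferase complexes, differed by -0.90, -0.44 and -0.51 in sorted CPC, cardiac and spontaneous cells (limma adjusted p = 0.000761, 0.0286 and 0.0105), under the minimum difference, and Wdr5, of the same complexes, by -0.27, -0.17 and -0.29. Of 7 measured HOX regulators of hindbrain and mesoderm, Zic2, a zinc finger factor of the epiblast, was the 1 called in each group, with rises of 2.25, 2.07 and 1.78 (limma adjusted p = 0.0102, 0.0155 and 0.0223). Gbx2, a homeobox gene of the anterior hindbrain, differed by -0.52, -0.63 and -0.47 (adjusted p = 0.0462, 0.0188 and 0.0497) and was not called. The medians of these 7 genes were 0.03, -0.14 and -0.08. Without the 3 libraries low in Kdr RNA, Zic2 stood at 3.07 in sorted CPC and 2.37 in cardiac arrays. The cardiac and spontaneous Zic2 calls were each lost without iPSC replicate 1 or 3 and without some arrays of their own group. Between day 4 groups, limma called 0 genes of these lists.

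The HOX clusters also hold miRNA genes, which are transcribed with their neighbours and repress HOX messages. Their mature forms are shown because the arrays read the host loci while the repressing sequence is the mature strand. Sequences are from RefSeq on GRCm38.p6, with the seed, bases 2 to 8, in capitals.
miR-10a-5p: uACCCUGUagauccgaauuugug
miR-10b-5p: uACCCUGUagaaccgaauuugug
miR-196a-5p: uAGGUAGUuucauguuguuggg
miR-196b-5p: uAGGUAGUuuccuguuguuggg
The members of each pair share a seed and differ by 1 base counted from the 5′ end, U12A from miR-10a to miR-10b and A12C from miR-196a to miR-196b. Mir10a lies in cluster B at chr11:96317186-96317208, Mir10b in cluster D at chr2:74726074-74726096, and Mir196b in cluster A at chr6:52230129-52230150 on the minus strand. The miR-196a strand comes from Mir196a-1 in cluster B at chr11:96265187-96265208 and Mir196a-2 in cluster C at chr15:102973365-102973386, and these 4 loci other than Mir196b are on the plus strand.

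None of these host loci was called. Mir10a measured 2.55, 2.67 and 2.85 in sorted CPC, 2.91, 3.18 and 2.83 in cardiac, 2.87, 2.75 and 2.70 in spontaneous and 2.91, 2.74 and 2.83 in iPSC arrays. Mir196b measured 5.30, 4.80 and 5.10 in sorted CPC, 4.67, 4.21 and 4.88 in cardiac, 4.66, 4.73 and 4.70 in spontaneous and 4.67, 4.96 and 4.99 in iPSC arrays. All day 4 groups overlapped day 0 in both, and the signal of a precursor probe set says nothing of the mature strand. Of 9 measured noncoding RNA genes inside the clusters, limma called 0 in any comparison, with 0 at an unadjusted p under 0.05 against day 0 and medians of 0.13, -0.07 and -0.04 in sorted CPC, cardiac and spontaneous cells. Mir615, within Hoxc5, differed by 0.15, -0.26 and -0.29, and Hoxd3os1 by 0.13, 0.08 and 0.08.

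Hoxb8 had no probe set of its own, and the signal of the probe set it shares with Hoxb7 cannot be assigned to either gene. That probe set measured 5.17, 4.70 and 5.33 in sorted CPC, 4.83, 4.47 and 4.78 in cardiac, 4.93, 4.77 and 4.74 in spontaneous and 5.19, 4.92 and 5.14 in iPSC arrays. Cardiac arrays lay below all day 0 arrays and the other groups overlapped it, with cardiac replicate 2 and sorted CPC replicate 2 again lowest in their groups. The RefSeq spans of 10 members overlap another HOX gene. These are Hoxa3, Hoxa4, Hoxa5, Hoxa6, Hoxb3, Hoxb4, Hoxd3, Hoxd4, Hoxd10 and Hoxd11. Where their probes lie was not examined, and whether their probe sets also read the neighbour was not tested. Markers of other lineages in these arrays were mixed: of 9 pluripotency genes 5, 5 and 6 were called lower in sorted CPC, cardiac and spontaneous cells, and of 12 fibroblast or feeder genes 1, 2 and 2 were called lower. Of 7 visceral endoderm and gut genes 0, 4 and 1 were called higher, and of 8 neural genes 1, 1 and 2 were called lower. Of 6 measured primitive streak and early mesoderm genes 2, 2 and 3 were called higher and 0 lower, with medians of 2.22, 1.91 and 2.08. The part of these lineages in the HOX and CDX values was not tested.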

How the data were processed

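Total RNA of 12 samples was read on Affymetrix mouse gene arrays. The authors deposited log2 signals, which the submitters' processing notes credit to RMA in Affymetrix Expression Console 1.3.1, so background and scale were set before deposit. The table held 35557 probe sets with values of 1.87 to 13.87 and array medians of 6.09 to 6.26. Groups were taken from the sample labels.

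Probe sets were named from GEO's platform annotation, which can be old. It gave a single symbol to 21789 probe sets and several to 1621, and 12147 were unnamed here. For 999 genes with several probe sets the one with the highest mean was kept, leaving 19938 genes. Members were matched to RefSeq by gene ID. The members, gene lists and alternatives were chosen with earlier results of these data known.

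A single model over the 12 arrays was fitted in limma 3.58.1 with R 4.3.3 (lmFit, then eBayes with an intensity trend), with 6 comparisons and a moderated F test. Two-sided p-values were adjusted by Benjamini-Hochberg over all 19938 genes. A call needed an adjusted p under 0.05 and a log2 difference of at least 1 in size. The procedure was tested on simulated data with known changes.

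Values on every array are given for Hoxb1, Hoxb2, Hoxa13 and the CDX genes, for members called or passing the F test, and for the 6 members with the highest mean. Hoxd1 and Hoxd13 were added after their values were seen. In each list of related genes up to 4 called genes with the largest difference and up to 2 uncalled genes with the highest mean are named. The lineage markers Kdr, Pdgfra, Nkx2-5, Pou5f1, Eomes, Gata3, Plac1, Elf5 and Tfap2c, and the miRNA genes, were chosen after their values were seen. Alternatives changed the prior variance, scaling, filter on dim genes, probe set rule, threshold, array weights, replicate block and arrays used.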

Additional observations from a re-analysis of the deposited data

How the results depend on the processing

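The count of members called was 1 between spontaneous cells and day 0 and 0 in the other 5 comparisons under every alternative run. All alternatives other than the setting that dropped it kept the minimum difference of 1. A smaller difference could not be called there whatever its p-value, so the steady counts do not show that the uncalled members were unchanged. Among the member differences followed, 403 of 417 kept their direction and call under the other settings and 419 of 432 when 1 array was left out; the rest, all uncalled, changed sign, and the cause was not tested. Hoxd1 in cardiac cultures minus day 0 became 0.0289 with array weights, 0.0037 with median centring, 0.0685 with repeated quantile normalization, 0.0724 without the 3 libraries low in Kdr RNA and 0.0891 with dim signals aligned. Cdx2 in sorted CPC minus cardiac became 0.0687 with array weights and 0.14 without those 3 libraries. Without them, Hoxb1 in cardiac cultures became 0.0717, and Cdx1 and Hoxb9 in sorted CPC libraries 0.0513 and 0.0182. With dim signals aligned, chosen after seeing the data, Hoxb1, Cdx4 and Hoxb3 in cardiac cultures became 0.0568, 0.0338 and 0.0446, and Hoxa4 in sorted CPC libraries -0.00099. When 1 array was left out, the sorted CPC differences ranged from -0.0727 to 0.19 in Hoxa4, -0.24 to 0.0297 in Hoxd1, -0.23 to 0.0095 in Cdx1 and -0.22 to 0.0297 in Hoxb9. The cardiac ones ranged from -0.12 to 0.0717 in Hoxb1, -0.0959 to 0.0724 in Hoxd1 and -0.10 to 0.0017 in Hoxb3, and the spontaneous ones from -0.0309 to 0.0825 in Hoxb3 and -0.0366 to 0.11 in Cdx4. The F test passed 3 members with array weights (Cdx2, Hoxb2 and Hoxd13, limma adjusted p = 0.000523, 0.0151 and 0.0221), where 23.4% of all genes passed. It passed 0 to 2 members when 1 array was left out, with 2 without sorted CPC replicate 2, where 8.48% of all genes passed, and 0 in 5 of these settings, where 1.78% to 3.15% of all genes passed. Residuals of arrays with the same replicate number correlated at -0.38 to 0.31, so the numbers are not shown to pair the samples. With the replicate block Cdx2 kept 1.27 in spontaneous cells (limma adjusted p = 0.0109), and the calls of Evx1 there and of Fgf8 in cardiac cultures were lost (adjusted p = 0.0546 and 0.0501). A filter on dim genes left 10767 genes and 6 members. Signals of 30 of the 40 members are not shown to exceed background, which limits what their differences can show.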
